A study of Mus musculus with 20 samples.

Results

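The 10 genes described here encode parts of the antigen presentation machinery of the major histocompatibility complex (MHC). They were taken by name from a table of 24528 genes: 5 belong to the class I pathway (H2-K1, H2-D1, B2m, Tap1 and Tap2) and 5 to the class II pathway (H2-Aa, H2-Ab1, H2-Eb1, Cd74 and Ciita). All 10 were present and passed the filter on values that do not vary. Neocortex and hippocampus of mice aged 18 months had been profiled by total RNA sequencing after removal of ribosomal RNA, to ask how a TDP-43 that mimics acetylation alters RNA in the brain. The groups were Cortex TDP43-WT with 5 libraries (3 female, 2 male), Cortex TDP43-KQ with 6 (3 female, 3 male), Hippocampus TDP43-WT with 4 (3 female, 1 male) and Hippocampus TDP43-KQ with 5 (3 female, 2 male). TDP43-WT mice carried the wild-type Tardbp gene. TDP43-KQ mice were homozygous for K145Q, a substitution of lysine by glutamine that was introduced into the endogenous gene by Cas9 editing of C57BL/6J zygotes. The allele was kept in heterozygous breeding, the libraries came from 5 litters, and each library was made from pulverized tissue that holds all the cells of its region.

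Class I molecules are made by nearly every cell type. A heavy chain (H2-K1 or H2-D1 in these mice) pairs with beta-2 microglobulin (B2m) and displays peptides that the transporter Tap1-Tap2 has moved from the cytosol into the endoplasmic reticulum, and CD8 T cells read the complex at the cell surface. Class II molecules are heterodimers of an alpha and a beta chain that show peptides from the endosome to CD4 T cells. The invariant chain Cd74 guards their groove on the way, and Ciita is the coactivator that switches the class II genes on. In brain, class II is known mostly from macrophages at the borders, dendritic cells and activated microglia, whereas interferon raises class I broadly.

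The deposited values were log2-like and every gene had been set to a mean of 0 over the Cortex TDP43-KQ libraries, so they give differences between libraries but not how abundant a gene is, and genes cannot be ranked by level. Nor can fewer cells of a type be told apart from less RNA per cell in bulk tissue. The targeted gene checked the labels, since Tardbp lay between -1.07 and -0.62 in the 9 TDP43-WT libraries and between -0.16 and 0.16 in the 11 TDP43-KQ libraries. Of 8 hippocampal marker genes, 7 were called higher in the hippocampus of TDP43-WT mice and 8 in that of TDP43-KQ mice. Of 8 neocortical markers, 6 were called lower there in each genotype and 2 were called higher, Tshz2 (1.16 and 0.96) and Fezf2 (0.48 and 0.28), which go against the label and were named after their values were seen. The 6 females of the hippocampus match those of the neocortex in genotype, number and litter, and whether they are the same mice is not stated. The main models, with those between regions, took all libraries as independent. An alternative with the matching female as a random effect estimated a correlation of 0.274 between its libraries. The p-values measure the spread between these libraries, but the fits of a single region leave some of them out of it. In the neocortex KQ female 2 and WT male 1, each alone in its litter, have a weight of 0 in the genotype difference. In the hippocampus the same holds for WT female 3, KQ female 2 and KQ female 3. The sex and litter terms fit these libraries exactly, so they add nothing to the spread in those fits. Cortex WT male 1 sits at its group mean for every member once litter is removed. It adds nothing to the spread in the fit of all libraries either.

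Control sequences that several members share are shown first, as these members are later described beside each other. The class I heavy chains, B2m and the class II chains are known to carry an SXY module, in which the X2 box and the Y box sit at a fixed spacing and bind the complex that Ciita and its class I relative Nlrc5 work through. RefSeq promoter windows (build GRCm38.p6) were on hand for 6 of 10 members, H2-K1, H2-D1, B2m, Tap1, H2-Aa and H2-Eb1. The others are Tap2, H2-Ab1, Cd74 and Ciita. In the 250 bases before the start, a core TGANG followed on the same strand by a core ATTGG that begins 20 to 30 bases further on was found in 5 of these 6 genes, all except Tap1. H2-K1 has 2 listed starts, and the first listed was used. Its window (34000348 to 34000597) lies inside the annotated gene (33996012 to 34000619), so it precedes an inner start. The same arrangement, searched on both strands, was present in 2.46% of all 32851 promoter windows of that length. The spacing was chosen after these sequences had been read. The stretches are printed 5′ to 3′ with both cores in capitals.
H2-K1, chr17:34000359-34000388, minus strand: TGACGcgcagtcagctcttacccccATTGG
H2-D1, chr17:35262993-35263022, plus strand: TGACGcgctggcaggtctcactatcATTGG
B2m, chr2:122147609-122147638, plus strand: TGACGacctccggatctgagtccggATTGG
H2-Aa, chr17:34287867-34287897, minus strand: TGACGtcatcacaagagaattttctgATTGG
H2-Eb1, chr17:34305784-34305812, plus strand: TGATGctggactcctttgatgctgATTGG

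The cores printed began 25 bases apart in H2-K1, H2-D1 and B2m, 26 apart in H2-Aa and 24 apart in H2-Eb1. H2-D1 and H2-Eb1 each held an overlapping TGANG that gave a second pair, 28 and 27 bases apart, and the pair nearest to 25 was printed. H2-K1, H2-D1, B2m and H2-Aa also held the letters AANNGAAA, the core read by interferon regulatory factors, on either strand, as did 21.3% of all windows, whereas H2-Eb1 and Tap1 did not hold them in this window. A match is a description of letters and not a measured binding site. Of the 9 members outside Cd74, H2-K1 (33996012 to 34000619), Tap1 (34187556 to 34197225), Tap2 (34204479 to 34216321), H2-Ab1 (34263227 to 34269418), H2-Aa (34282744 to 34287823), H2-Eb1 (34305867 to 34316674) and H2-D1 (35263094 to 35267497) lie on chromosome 17 in the MHC itself, B2m lies on chromosome 2 and Ciita on chromosome 16. H2-D1 was the only member whose transcripts share whole stretches of 100 bases with other genes: 4.09% of its stretches recur in another gene and 3.74% of them all recur in H2-Q1, so a small part of its reads could be split between genes.

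In the neocortex, neither class differed by genotype beyond the spread between libraries. No member was called at an adjusted p under 0.05, against 0.0382% of the 18329 genes tested, and none had an unadjusted p under 0.05, against 13.7%. Class I members lay on both sides of 0, with 3 higher and 2 lower in TDP43-KQ and a median log2 difference of 0.04. All 5 class II members were below 0, with a median of -0.08, beside a median of -0.0037 over all genes. Leaving out single libraries moved that class II median from -0.20 to 0.04, and with all 20 libraries fitted together 4 of 5 were below 0 and H2-Aa was at 0.0041, with a median of -0.06, so no direction is drawn from them.

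Among the class I genes, the transporter subunit Tap1 stood at -0.07, -0.12, -0.23, -0.12 and -0.04 in the 5 Cortex TDP43-WT libraries. Its 6 Cortex TDP43-KQ libraries ran from -0.15 over a median of -0.02 to 0.17. The TDP43-WT libraries were all below 0, 4 of them within the TDP43-KQ range and WT female 3 below it, and the log2 difference was 0.10 ± 0.08 (SE, limma, adjusted p = 0.581). The heavy chain H2-K1 ran from -0.24 to 0.09 in TDP43-WT and from -0.28 to 0.29 in TDP43-KQ, a difference of 0.06 ± 0.14. The heavy chain H2-D1 differed by -0.01 ± 0.11, B2m by -0.10 ± 0.11 and Tap2, the other transporter subunit, by 0.04 ± 0.06.

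Among the class II genes, the beta chain H2-Eb1 had the largest difference in the neocortex. It stood at 0.21, 0.13, 0.07, 0.12 and 0.06 in the TDP43-WT libraries and ran from -0.34 over a median of 0.04 to 0.23 in TDP43-KQ. The groups overlapped, and the difference was -0.17 ± 0.10 (95% interval -0.40 to 0.07, limma, adjusted p = 0.482). The TDP43-KQ libraries spread more widely than the TDP43-WT ones for all 5 class II genes, with an SD of 0.23 against 0.06 for Cd74 and of 0.18 against 0.05 for the alpha chain H2-Aa. KQ female 1 was the lowest neocortical library for each class II gene, from -0.34 for H2-Eb1 to -0.16 for Ciita. It was also the lowest Cortex TDP43-KQ library for the list means of the meningeal fibroblast (-0.31), microglial (-0.12), border macrophage (-0.10), astrocyte (-0.12) and blood markers (-0.47). It was not the lowest for the endothelial, oligodendrocyte, neuron, dendritic cell, T, B and NK cell or choroid plexus markers. The choroid plexus markers had a list mean of -0.68 in KQ female 1, -0.79 in KQ male 2 and -0.87 in KQ male 3. By genotype 9 of the 10 choroid plexus markers were below 0 (median -0.15), against 5 of 10 with all libraries fitted together (median 0.04). The part of these lists in the class II values was not tested. No member had separate groups, whereas 8.51% of all genes did.

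**Figure D1:**
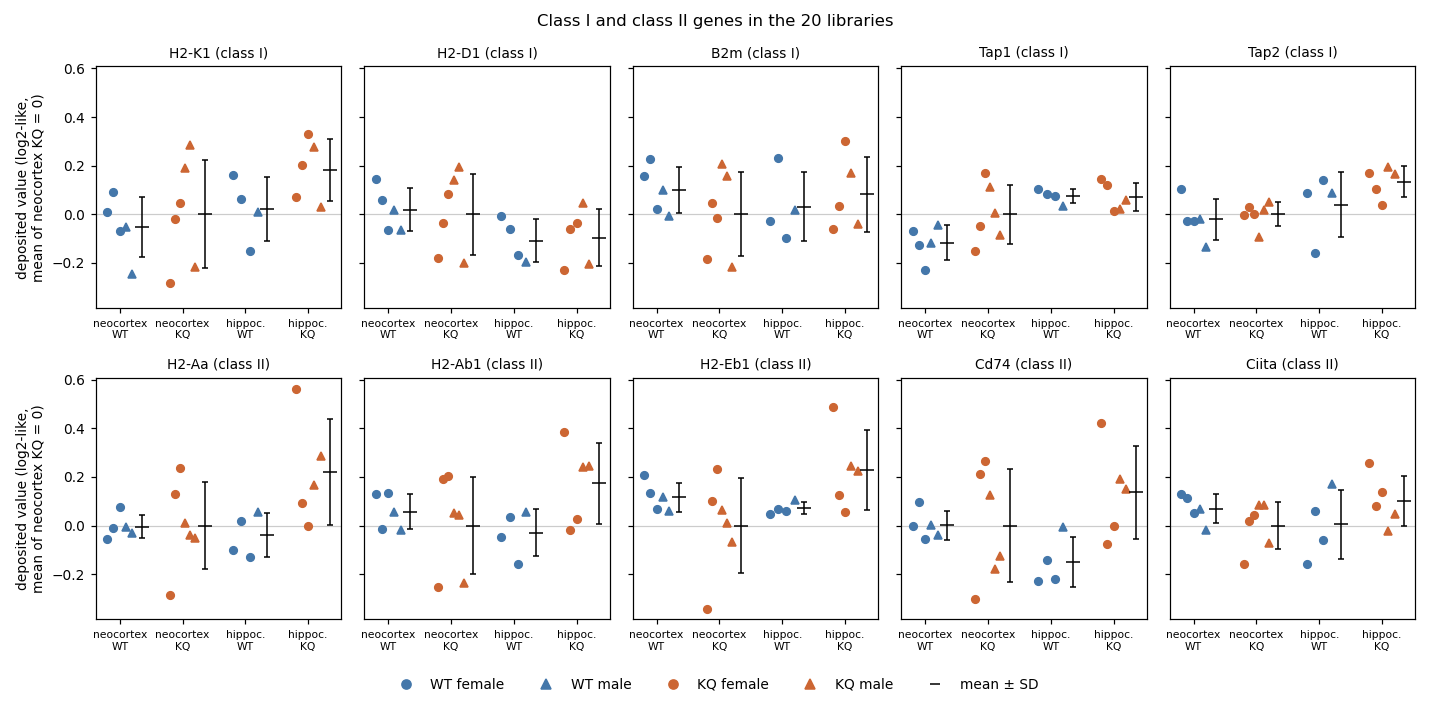
Deposited log2-like values of the 10 genes (y axis, mean of neocortex TDP43-KQ set to 0) in each of the 20 libraries by group (x axis), circles for females and triangles for males, with the mean ± SD in black. For H2-Aa, H2-Ab1, H2-Eb1 and Cd74 the highest point is hippocampus KQ female 1, between 0.38 and 0.56, while the neocortical KQ female 1 is the lowest of its group.

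In the hippocampus, the class II chains and Cd74 were higher in TDP43-KQ than in TDP43-WT libraries, but no member passed the adjusted threshold. The log2 difference was 0.28 to 0.39 in the fit of the hippocampal libraries with sex and litter. It was 0.16 to 0.29 between the group means, which the fit of all libraries gives. The differences printed below for each gene are those of the hippocampal fit unless stated. None of the 18310 genes tested was called there by limma (0%), although 2224 had an unadjusted p under 0.05. Tardbp was among those not called, although it ran from -1.03 to -0.62 in TDP43-WT and from -0.162 to 0.155 in TDP43-KQ. A missing call here therefore does not show that a gene is unchanged. All 5 class II members were higher, with a median log2 difference of 0.29, beside -0.0047 over all genes. Of the 10 members, 4 were higher at an unadjusted p under 0.05, all of them class II, against 6.48% of all genes.

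H2-Aa, the alpha chain, stood at -0.10, 0.02, -0.13 and 0.06 in the 4 Hippocampus TDP43-WT libraries. Its 5 TDP43-KQ libraries stood at 0.56, 0.09, -0.0017, 0.17 and 0.29. KQ female 1 was far above the rest and KQ female 3 lay within the TDP43-WT range, so the groups overlapped. The difference was 0.39 ± 0.11 (95% interval 0.14 to 0.64, limma, adjusted p = 0.286).

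H2-Ab1, the beta chain that pairs with H2-Aa, stood at -0.05, 0.03, -0.16 and 0.06 in TDP43-WT. In TDP43-KQ it stood at 0.38, -0.02, 0.03, 0.24 and 0.24. The females KQ 2 and KQ 3 lay among the TDP43-WT values and the other TDP43-KQ libraries above them. The difference was 0.29 ± 0.07 (limma, adjusted p = 0.280).

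H2-Eb1, the other beta chain, was tight in TDP43-WT, at 0.05, 0.07, 0.06 and 0.11. In TDP43-KQ it stood at 0.49, 0.13, 0.06, 0.24 and 0.23, with KQ female 3 alone inside the TDP43-WT range. The difference was 0.28 ± 0.08 (limma, adjusted p = 0.294).

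Cd74, the invariant chain, stood at -0.23, -0.14, -0.22 and -0.0050 in TDP43-WT and at 0.42, -0.08, -0.0006, 0.19 and 0.15 in TDP43-KQ. KQ female 2 was below the TDP43-WT male, and the other TDP43-KQ libraries were above every TDP43-WT library. The difference was 0.39 ± 0.10 (95% interval 0.15 to 0.63, limma, adjusted p = 0.280). Ciita, the coactivator of these genes, stood at -0.16, 0.06, -0.06 and 0.17 in TDP43-WT and at 0.26, 0.08, 0.14, -0.02 and 0.05 in TDP43-KQ. Its groups overlapped almost wholly, and the difference was 0.07 ± 0.12 (limma, adjusted p = 0.818).

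The median difference of the 5 class I members in this region was 0.03, with 3 above and 2 below 0, and the classes were not tested against each other. With all libraries fitted together 4 of 5 were above 0, with a median of 0.05 and H2-K1 at 0.16 ± 0.13. In the fit of the hippocampal libraries alone, Tap2 had the largest class I difference, 0.15 ± 0.09 (limma, adjusted p = 0.509). H2-D1 and B2m were at -0.04 ± 0.10 and -0.06 ± 0.10. The 95% interval of H2-K1 reached from -0.16 to 0.27 in that fit. No member had separate groups, against 9.45% of all genes.

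The class II difference rested unevenly on the libraries. With sex and litter in the model, hippocampus KQ female 1 has a weight of 0.5 in the genotype difference and WT male 1 a weight of -0.5, while WT female 3 and the females KQ 2 and KQ 3 have a weight of 0. Without KQ female 1 the class II median was 0.17 in place of 0.29, and without WT male 1 it was 0.43. When all 20 libraries were fitted together, the genotype difference equalled the difference of the group means, because sex and litter had already been taken out. The class II median in the hippocampus was then 0.20, or 0.07 without KQ female 1. No class II member had an unadjusted p under 0.05 in that model: H2-Aa differed by 0.26 ± 0.12 (limma, adjusted p = 0.340) and Cd74 by 0.29 ± 0.14 (adjusted p = 0.340). That model called 0.386% of 17863 genes in the hippocampus and 0.224% in the neocortex, and no member in either.

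Markers of tissue at the edge of the hippocampus were also higher in TDP43-KQ libraries. Over the hippocampal libraries, with the group means removed, the class II mean had r = 0.85 with the choroid plexus markers. It had r = 0.29 with the meningeal fibroblast and 0.15 with the border macrophage markers. All 10 choroid plexus markers were higher in Hippocampus TDP43-KQ, by 1.16 to 3.06 with a median of 1.62, and all 10 had an unadjusted p under 0.05 but none an adjusted one. With all libraries fitted together they were higher by 0.83 to 1.64 with a median of 1.06. In that model 2 of 10 had an unadjusted p under 0.05 (limma). The mean of that list was -0.14, 0.51, 0.95 and 1.92 in the TDP43-WT libraries and 3.47, 0.26, 1.60, 2.18 and 2.17 in the TDP43-KQ libraries. KQ female 1, the highest for class II, was the highest here too, and the groups overlapped. The 10 meningeal fibroblast markers were all higher as well (median 0.57, range of the list mean -0.02 to 0.41 in TDP43-WT and 0.31 to 0.81 in TDP43-KQ), as were the 10 border macrophage markers (median 0.29, -0.22 to 0.06 in TDP43-WT and -0.07 to 0.21 in TDP43-KQ). Of these markers 1 was called, the matrix proteoglycan gene Lum, at 0.51 ± 0.10 with all libraries fitted together (limma, adjusted p = 0.0364). The microglial markers were lower in 14 of 15 (median -0.16), with a list mean of 0.04 to 0.40 in TDP43-WT and -0.09 to 0.09 in TDP43-KQ. The oligodendrocyte markers were lower in 8 of 8, each at an unadjusted p under 0.05 (median -0.33, list mean 0.31 to 0.57 in TDP43-WT and 0.04 to 0.32 in TDP43-KQ). The neuron markers were below 0 in 8 of 8 (median -0.16) and the astrocyte markers in 6 of 8 (median -0.19), and none of these markers was called within the hippocampus. The 10 dendritic cell markers were split, 5 higher and 5 lower, with a median of 0.0018, and the T, B and NK cell markers had 5 of 12 higher. The endothelial markers were higher in 6 of 10 (median 0.06). In the neocortex, oligodendrocyte and astrocyte markers were also lower by genotype in 8 of 8 each (medians -0.18 and -0.15). There the microglial markers were lower in 13 of 15, the endothelial in 9 of 10 and the neuron markers in 5 of 8, with none called. The border macrophage markers were higher there in 8 of 10 (median 0.05), and the meningeal fibroblast markers were split, 5 higher and 5 lower. None of these was called either. With the mean of the choroid plexus markers as a further term, chosen after the data had been seen, the class II median in the hippocampus was 0.13, the class I median was also 0.13, and no member had an unadjusted p under 0.05. With all libraries fitted together and that term the class II median was 0.07. In the hippocampal fit the term leaves fewer than the 3 residual degrees of freedom it had before. Its p-values therefore cannot be set beside those without the term. The part of these tissues and cell types in the class II difference was not tested further.

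**Figure D2:**
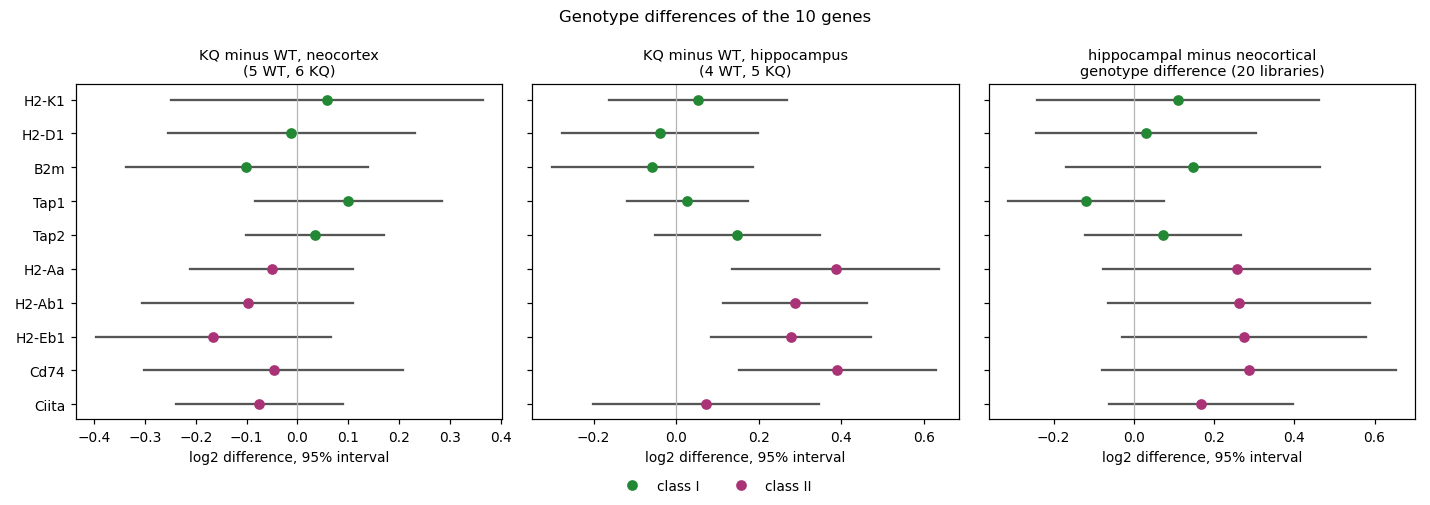
Log2 differences of the 10 genes with 95% intervals (x axis) for TDP43-KQ minus TDP43-WT in neocortex (left) and hippocampus (middle), and for the hippocampal minus the neocortical difference, class I in green and class II in purple. In the hippocampus the intervals of H2-Aa, H2-Ab1, H2-Eb1 and Cd74 lie above 0, before any adjustment for the number of genes, and in the other panels every interval spans 0.

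Whether the genotype difference itself differed between the regions was tested in the model of all libraries. It was more positive in the hippocampus for all 5 class II members, by 0.17 ± 0.11 for Ciita to 0.29 ± 0.17 for Cd74, but each interval included 0 and the adjusted p-values of limma ran from 0.83 to 0.856. H2-Eb1 had the lowest of these, at 0.27 ± 0.14 (95% interval -0.03 to 0.58). No class I member was called, and neither was any of the 17863 genes (0%), of which 1041 had an unadjusted p under 0.05. The interaction of sex with genotype was tested in the neocortex alone, since the hippocampus has 1 TDP43-WT male. No member was called, with an adjusted p of 0.999 for each, and neither was any gene (0% by limma, with 411 genes at an unadjusted p under 0.05). H2-K1 had the largest term, with a genotype difference higher in males by 0.49 ± 0.29.

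Between the regions of TDP43-WT mice, Tap1 was the only member called. It stood at 0.10, 0.08, 0.08 and 0.03 in Hippocampus TDP43-WT, above all 5 Cortex TDP43-WT libraries given earlier. The difference was 0.19 ± 0.07 (95% interval 0.05 to 0.34, limma, adjusted p = 0.0490). That is 1 of 10 members against 28.2% of the 17863 genes tested, and 1 of 10 with separate groups against 32.1%. The call was near the threshold and held in 8 of 26 alternatives, with an adjusted p of up to 0.236 without Cortex WT female 3, where the difference was 0.13. All 5 class II members were lower in the hippocampus of TDP43-WT mice, with log2 differences of -0.15 to -0.03, and none was called.

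In TDP43-KQ mice the class II members were all higher in the hippocampus, by 0.10 to 0.23, with a median of 0.17 beside 0.01 over all genes. No member was called, against 35.4% of genes, and none had separate groups, against 27.7%. H2-Eb1 differed by 0.23 ± 0.09 (limma, adjusted p = 0.0731), H2-Aa by 0.22 ± 0.10 (adjusted p = 0.112) and Tap2 by 0.13 ± 0.06 (adjusted p = 0.0986). H2-Eb1 and H2-Aa passed in 4 of 26 alternatives each and Tap2 in 3 of 26. The 10 choroid plexus markers were higher in the hippocampus of these mice too, with 9 called and a median of 1.66, against a median of 0.66 and none called in TDP43-WT mice. Their part in the regional class II values was not tested.

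Of 25 other genes of the class I pathway, 5 were called between the regions of TDP43-WT mice, all lower in the hippocampus, against 28.2% of all genes. In TDP43-KQ mice 5 were called lower and 3 higher, against 35.4%, so the list was called no more often than the background. H2-T23, the nonclassical heavy chain Qa-1 that inhibits NK cells through its receptor, had the largest difference among those called, at -0.78 ± 0.08 in TDP43-WT (limma, adjusted p = 2.42e-06) and -0.64 ± 0.07 in TDP43-KQ (adjusted p = 4.16e-06). The nonclassical heavy chains H2-T22 (-0.24 and -0.28) and H2-M3 (-0.20 and -0.18), the immunoproteasome subunit Psmb10 (-0.22 and -0.30) and the tapasin relative Tapbpl (-0.21 and -0.30) were lower in both genotypes. Higher in TDP43-KQ mice were Mr1, which presents vitamin metabolites (0.30), the class I coactivator Nlrc5 (0.21) and the peptide trimming enzyme Erap1 (0.15). Calls in TDP43-KQ alone were not tested against TDP43-WT other than by the interaction, which called no gene.

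In the class II pathway, 21 of the 22 other genes were tested. In TDP43-WT mice 1 was called higher and 1 lower in the hippocampus, against 28.2% of all genes called. In TDP43-KQ mice 1 was called higher and 4 lower, against 35.4%. March1, the ubiquitin ligase that removes class II from the surface, was higher in the hippocampus of both genotypes (0.37 and 0.39), and the lysosomal protease Ctsb was lower (-0.30 and -0.21). In TDP43-KQ mice alone Nfyc, a subunit of the factor that binds the Y box (-0.14), the peptide editor subunit H2-DMb2 (-0.16) and the protease Lgmn (-0.14) were also called lower. Of 24 genes of interferon signalling, 2 were called higher and 2 lower in TDP43-WT mice, and 4 higher and 2 lower in TDP43-KQ mice. Neither list was called more often than the background. The receptor subunit Ifngr2 was higher in both genotypes (0.41 and 0.37), while the kinase Jak2 (-0.29 and -0.25) and the interferon-induced GTPase Igtp (-0.46 and -0.30) were lower. The kinase Tyk2 was called higher in TDP43-WT (0.38), and the receptor subunit Ifnar2 (0.24), the restriction factor Bst2 (0.40) and the transcription factor Irf9 (0.20) in TDP43-KQ.

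**Figure D3:**
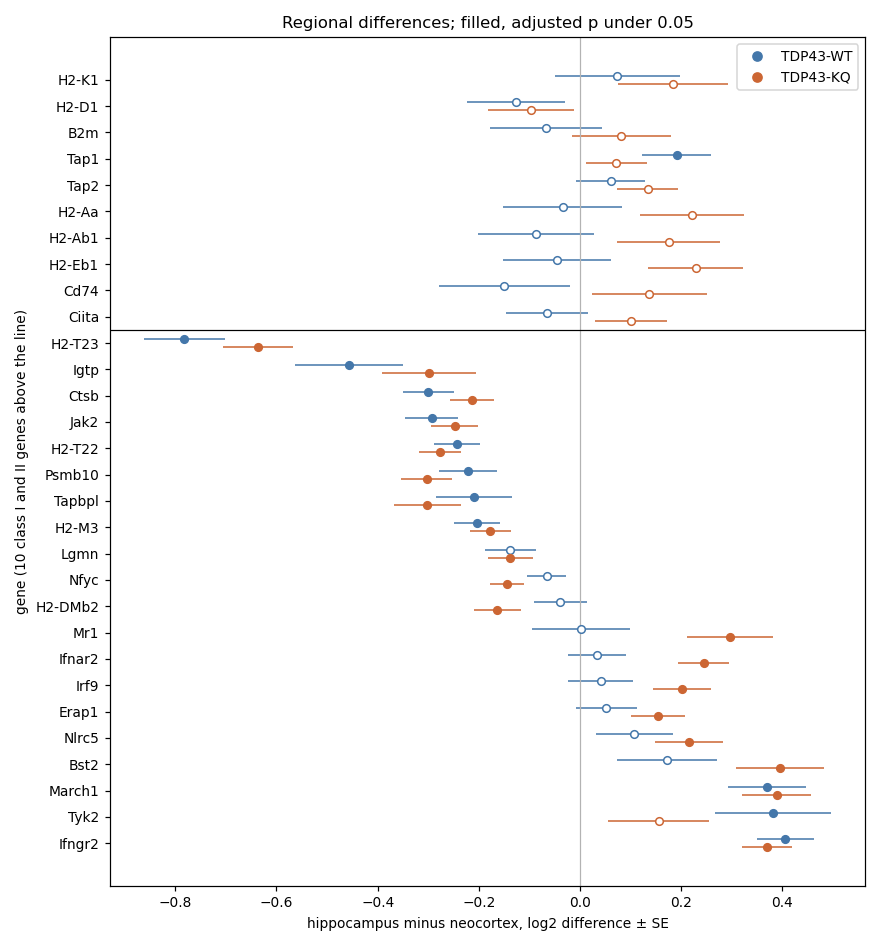
Hippocampus minus neocortex as a log2 difference ± SE (x axis) in TDP43-WT (blue) and TDP43-KQ (orange) for the 10 members above the line and, below it, for the other pathway genes called in either genotype. Filled points have an adjusted p under 0.05, and H2-T23 lies farthest from 0, at -0.78 and -0.64.

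By genotype, none of the other pathway genes was called within a single region. In the class I list 11 of 25 were higher in Cortex TDP43-KQ and 17 of 25 in Hippocampus TDP43-KQ. The lowest p-values were those of the lipid-presenting Cd1d1 (-0.17 ± 0.05), H2-T24 (-0.18 ± 0.06) and the chaperone Canx (-0.14 ± 0.06) in neocortical tissue, and of H2-Q10 (-0.55 ± 0.14), the peptide loading factor Tapbp (0.21 ± 0.07) and H2-Q1 (0.20 ± 0.07) in the hippocampus, with limma adjusted p-values between 0.257 and 0.364. In the class II list 9 of 21 and 10 of 21 were higher. The protease Ctss, which trims the invariant chain, was at -0.32 ± 0.07 in neocortical tissue and -0.30 ± 0.13 in the hippocampus, followed by H2-Ob (-0.20 ± 0.05) and Ctsb (-0.14 ± 0.06) in the former and Nfya (0.43 ± 0.09) and Ctsl (0.25 ± 0.11) in the latter. Ctss is abundant in microglia, whose markers were at a median of -0.16 in each region, and that part was not tested.

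Of 24 genes of interferon signalling, 18 were above 0 in Cortex TDP43-KQ, beside 8886 of 18329 of all genes, and 19 in Hippocampus TDP43-KQ, beside 8842 of 18310. None was called within a region, and with all libraries fitted together 16 of 24 were above 0 in the hippocampus. Irf9, the DNA-binding subunit of the factor that answers type I interferon, was at 0.23 ± 0.06 and 0.42 ± 0.10, and its partner Stat2 at 0.29 ± 0.06 in the neocortex. Irf8, a factor of the myeloid lineage, was at -0.23 ± 0.06 and -0.33 ± 0.09, and the GTPase Gbp2 at 0.33 ± 0.08 in the hippocampus. With all libraries fitted together, Irf9 was called higher in Hippocampus TDP43-KQ (0.39 ± 0.07, limma, adjusted p = 0.0232) and Irf8 lower (-0.30 ± 0.06, adjusted p = 0.0393). Irf8 is expressed by microglia, whose markers were lower in the same libraries, and their part was not tested.

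With the group means removed, the 10 pairs within class II correlated with a median Pearson r of 0.83 over 20 libraries, from 0.54 to 0.89, and all were positive. Ciita was the least tied of them, with r of 0.54 to 0.59 to the others. Without hippocampus KQ female 1 the class II median was 0.81. In class I, H2-K1, H2-D1 and B2m varied together (r of 0.91, 0.84 and 0.79), whereas Tap2 had a negative r with each other class I gene, down to -0.44 with B2m. The 25 pairs between the classes had a median r of 0.23, and 22 were positive. Tap1 had r of 0.35 to 0.67 with the class II genes, against -0.14 to 0.46 with the other class I genes. The mean of class I had r = 0.68 with that of class II over the neocortical libraries and -0.48 over the hippocampal ones. Libraries of the regions may share mice, so these values are descriptions without a test.

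**Figure D4:**
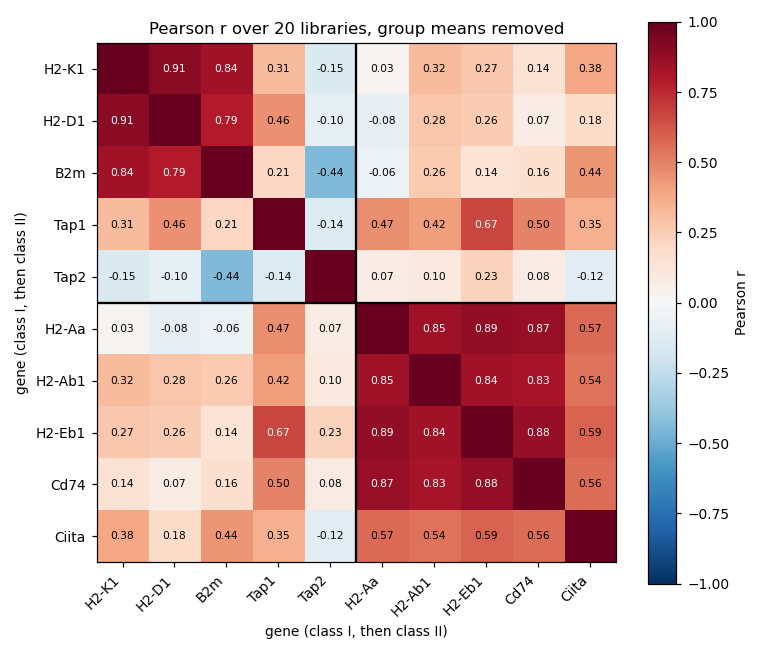
Pearson r between each pair of the 10 genes over 20 libraries after removal of the 4 group means, class I first on both axes, with the colour scale from -1 to 1. The class II block is uniformly positive, and in class I the positive block is limited to H2-K1, H2-D1 and B2m with weaker values for Tap1.

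The genes most like the class I mean over the 20 libraries, out of 17858, were Tgtp2 (r = 0.96), Klf10 (0.95), Irgm1 (0.95), Irgm2 (0.95), Ifi47 (0.94) and Psmb8 (0.93). Tgtp2, Irgm1, Irgm2 and Ifi47 are interferon-inducible GTPases, and Psmb8 is an immunoproteasome subunit. The class I mean had r = 0.92 with the mean of the interferon signalling list (0.97 over neocortical and 0.80 over hippocampal libraries) and 0.86 with the blood markers. Without the 2 libraries farthest from the median these were 0.87 and 0.79.

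The genes most like the class II mean were Uap1l1 (r = 0.94), Pdpn (0.93), Psap (0.93), Bsg (0.93), Cd151 (0.92) and Gsn (0.92). None of these is a class II gene, and Pdpn encodes podoplanin, a membrane glycoprotein. The class II mean had r = 0.77 with the choroid plexus markers (0.70 in the neocortex, 0.85 in the hippocampus, 0.75 without the 2 farthest libraries) and 0.58 with the meningeal fibroblast markers (0.89, 0.29 and 0.38 in the same order). With the microglial markers it had r = 0.32 (0.66 over neocortical and 0.04 over hippocampal libraries) and with the blood markers 0.33 (0.72 and -0.46). With the border macrophage markers it had r = 0.24 and with the dendritic cell markers -0.34. Class I showed r = 0.02 with the choroid plexus markers (0.30 over neocortical and -0.49 over hippocampal libraries).

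**Figure D5:**
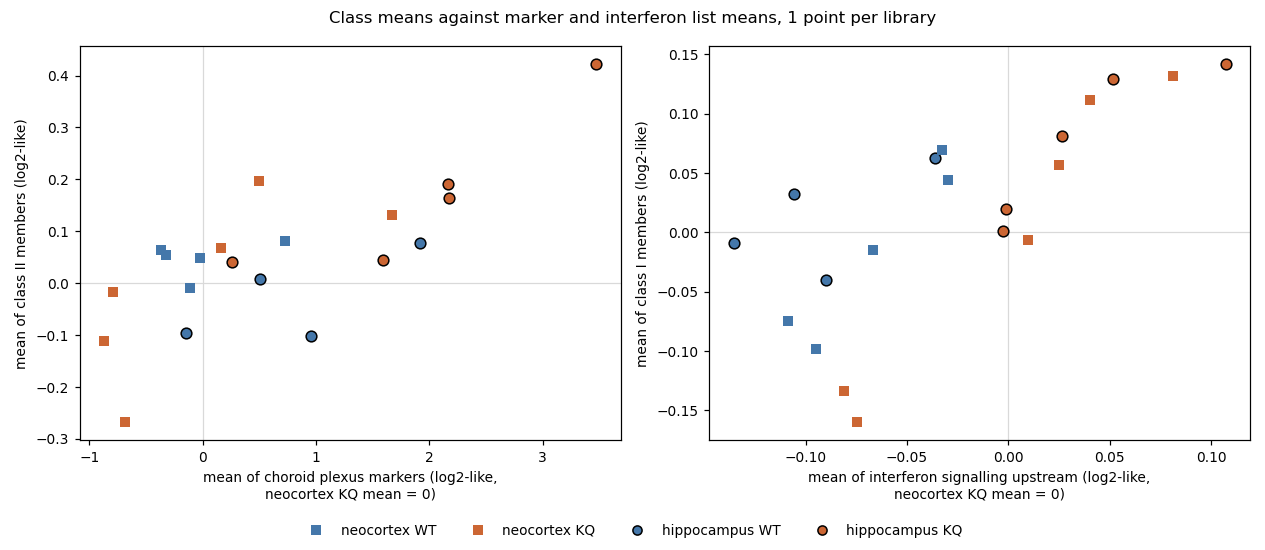
Mean of the 5 class II genes against the mean of the choroid plexus markers (left) and mean of the 5 class I genes against the mean of the interferon signalling list (right), in log2-like values, 1 point per library, squares for neocortex and circles for hippocampus. Hippocampus KQ female 1 is at the far upper right of the left panel, at 3.47 and 0.42.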

How the data were processed

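The 20 libraries were made from ribosome-depleted total RNA. Per the submitters' processing notes and the study's methods, the authors used cutadapt for trimming, STAR 2.5.2b for alignment (genome mm10), Salmon for quantification and the variance-stabilizing transformation of DESeq2 1.34.0 under R 4.1.0, then took sex and litter effects out by means of limma. The deposited values are thus on a log2 scale, centred per gene on Cortex TDP43-KQ (a mean of 0 within 0.001 for all 24528 genes), and hold no counts, so depth is unknown.

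Groups, sex and litter came from the labels. Genes tied within 1e-06 in all libraries (4383 genes), or in all 3 libraries of a sex and litter, were left out. Linear models with genotype, sex and litter were fitted with limma 3.58.1 in R 4.3.3 over 18329 genes (neocortex, 4 residual degrees of freedom), 18310 (hippocampus, 3) and 17863 (all libraries, 11), with Benjamini-Hochberg adjustment over all genes and a threshold of 0.05. The procedure was also run on simulated data with independent noise for each gene and library. Those data held no shared litter or tissue effects, so they do not show how it fares with them. Each difference is TDP43-KQ minus TDP43-WT or hippocampus minus neocortex. The members and lists were chosen with earlier results of these data known. All members were named. Of the pathway lists, genes called in any comparison and the 3 of lowest genotype p per list and region were named, of the marker lists those called for genotype, and for likeness the 6 of highest r to each class. Alternatives changed the model terms, the centring, the filter and single libraries.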

Additional observations from a re-analysis of the deposited data

How the results depend on the processing

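No result that was called changed direction, and no alternative called a member by genotype or for the region by genotype difference. With a replicate block in place of sex and litter, which the labels do not bear out as a pairing because same-numbered libraries often differ in litter, the class II median in the hippocampus was 0.19, and 1 member was called between the regions of TDP43-KQ mice. That count was 3 with the groups alone, 3 with separate sex and litter terms by region, and 0 to 3 leaving out single libraries. The call of Tap1 in TDP43-WT mice (1 member) fell to 0 with terms for each region, with libraries centred on their medians and with no filter, and ranged from 0 to 1 leaving out single libraries. Leaving out single libraries, the class I median by genotype ranged from -0.11 (without Cortex WT male 2) to 0.14 (without Cortex KQ female 1) in the neocortex. The class II median by genotype in the hippocampus ranged from 0.17 to 0.43, and with all libraries fitted together from 0.0744 to 0.258. With the choroid plexus markers as a further term, an alternative chosen after seeing the data, the hippocampal class I median was 0.13 and the class II median 0.13, or 0.0661 with all libraries fitted together, and the class II region by genotype median was 0.13 in place of 0.26. It was 0.44 with terms for each region. The sex by genotype medians ranged from -0.23 to 0.50 for class I and from -0.30 to 0.34 for class II leaving out single libraries, and the latter was -0.0298 without litter. The causes of these shifts were not tested. With 3 and 4 residual degrees of freedom in the single regions, small differences could not be resolved, and the files give no depth. In the hippocampus even Tardbp, whose groups were separate, was not called, so larger differences could be missed too. The study itself reported differentially expressed genes in each region with DESeq2.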
